A study of Mus musculus with 14 samples.

Results

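Lungs of BALB/c mice carrying a 4T1 mammary tumour were compared with lungs of tumour-free mice across all genes of an Affymetrix mouse genome array. The 9 arrays of the comparison were all those whose titles place them in the metastatic group (4 arrays) or the normal group (5 arrays), out of 14 in the series. In the 4T1 group, cells of 4T1, a metastatic breast carcinoma line of BALB/c mice, had been injected into the fourth mammary fat pad; the normal group had been given PBS alone. Lungs of both groups were flushed with PBS to clear the vessels of blood and kept in RNAlater. Collection of the 4T1 lungs was 6 days after the injection, or at a tumour volume near 50 mm3. The labels do not say which applied to which mouse, and they give no collection day for the normal lungs. The tumour group is a single cell line at a single stage. The labels name neither age nor sex, and do not say that each array came from a separate mouse, so p-values reflect the spread over these arrays, which may be technical in part. The other 5 arrays, of lungs of mice with 67NR tumours, entered the estimate of the spread and the mean level behind the filter and the choice of probe set. They enter no difference given here except those named as 67NR among the flagged results.

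Neutrophils are short-lived granulocytes made in the bone marrow under G-CSF. As they mature they fill azurophil, then specific, then gelatinase granules, and messages of the early granules are shut off before the cells leave the marrow, whereas S100a8, S100a9 and the chemoattractant receptors belong to the late stages. The 4T1 line is known for secreting G-CSF and for a strong expansion of granulocytic cells in its hosts, and S100A8, S100A9, MMP9 and Bv8 of such cells have been studied as factors of the premetastatic lung. Lung also holds a large pool of neutrophils within its capillaries in health.

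The deposited values were linear intensities, whose array medians lay between 113.2 and 116.1 over the 14 arrays. Changes are given as differences of mean log2(intensity + 16), and a gene was called changed at an adjusted p under 0.05 (limma, Benjamini-Hochberg over the 10916 genes in the upper 60% of mean level). Defining markers of lung were bright in both groups. The type 2 cell surfactant gene Sftpc spanned 6203 to 8475 in 4T1 and 6782 to 9203 in normal lungs, with a log2 change of -0.087. The club cell gene Scgb1a1, the type 1 cell gene Ager and the endothelial gene Cldn5 had log2 changes of -0.054, 0.038 and -0.091, with adjusted p-values between 0.954 and 0.982 for these 4 markers.

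In 4T1 lungs 45 of the 10916 genes (0.412%) were higher than in normal lungs, led by genes of neutrophils and other myeloid cells, and 0 were lower. At an unadjusted p under 0.05 there were 391 higher and 325 lower genes in limma. These numbers over all tested genes are the background for the counts of list members below. The lists were chosen with earlier results of these data known, so those counts are a description. Log2 changes of the 45 ran from 0.27 to 3.85 with a median of 0.89; 19 rose at least 2-fold and 26 by less. The median log2 change over all tested genes was -0.00077, and 49.53% of them were positive; the arrays were deposited with nearly equal medians, which holds this value near 0. The middle 95% of changes lay between -0.20 and 0.26. On all 4 4T1 arrays each of the 45 genes stood above its highest normal array, and such a gap without overlap was seen in 153 tested genes above (1.40%) and 144 below (1.32%) the normal lungs, 2.72% in all. Lung is a mixed tissue, so a higher level from more cells of a type and one from more RNA per cell cannot be told apart in any of these values.

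**Figure D1:**
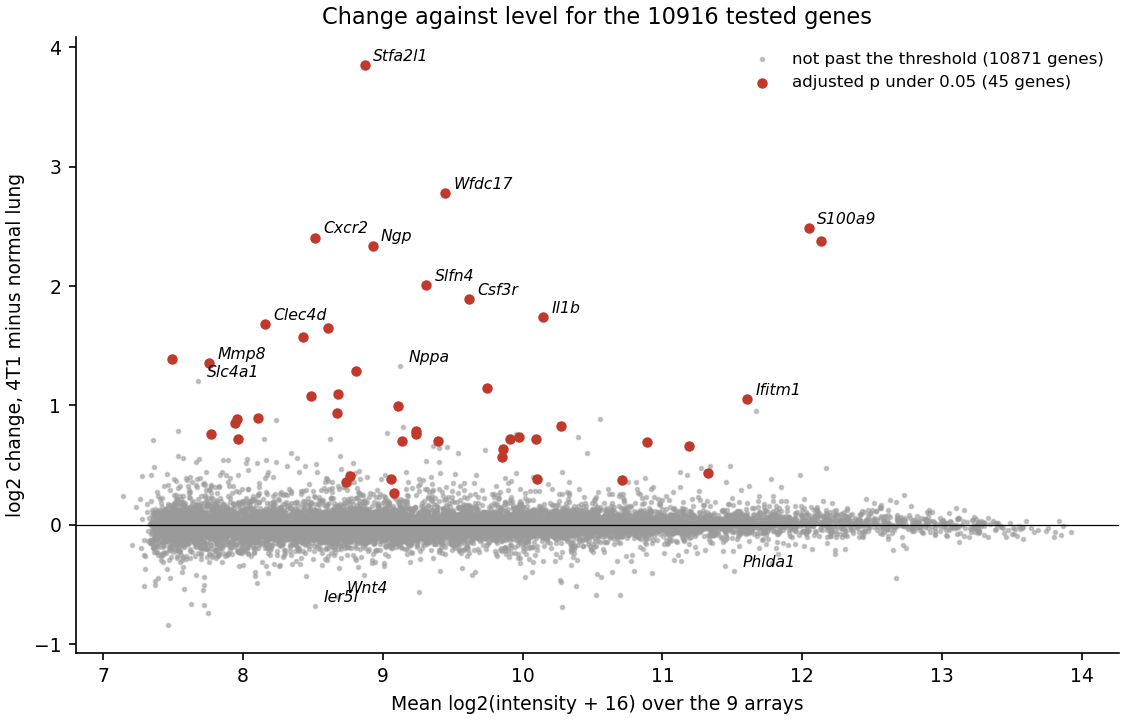
Log2 change of 4T1 against normal lung (vertical axis) for each of the 10916 tested genes, by its mean log2(intensity + 16) over the 9 arrays (horizontal axis). The 45 genes called by limma are in red, all above 0 and up to 3.85; grey genes were not past the threshold, among them Nppa and Slc4a1 above and Phlda1, Wnt4 and Ier5l below.

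A principal component analysis of the 9 arrays placed the groups apart on the second component (22.63% of the variance), where 4T1 arrays lay between 5.17 and 9.27 and normal arrays between -10.55 and -2.25. The first component (27.04%) mixed them, with 4T1 arrays from -11.58 to 8.44 and normal arrays from -8.26 to 13.72. Root mean square log2 differences over genes were 0.170 to 0.246 between 4T1 arrays, 0.169 to 0.256 between normal arrays and 0.210 to 0.289 across the groups, so the ranges overlapped.

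S100a8 and S100a9, which pair as the calcium-binding antimicrobial protein calprotectin and make up much of the neutrophil cytosol, and the stefin A genes, which encode cysteine protease inhibitors of myeloid cells, were among the largest rises. The 3 tested genes of this list rose, with a median log2 change of 2.48; 1 of them, Stfa2l1, had a mean log2 level of 7.16 in normal lungs, under the cutoff of 7.352, and passed the filter only through its 4T1 arrays. The same holds for Mmp8 (7.15) and Asprv1 (6.88), so the counts of their lists are a description; with the filter on normal arrays alone 42 of the 45 were tested and 40 called. Intensities of S100a9 were 11451, 9199, 12126 and 11441 in 4T1 replicates 1 to 4 and 2226, 1369, 1689, 2044 and 2709 in normal replicates 1 to 5. Its lowest 4T1 array was several times its highest normal array, and it rose 5.59-fold (log2 change 2.48, SE 0.19, adjusted p = 5.01e-06). S100a8 read 11774, 9333, 11658 and 12329 in 4T1 and 2434, 1482, 1671, 2686 and 2819.8 in normal lungs, in the same replicate order. The normal arrays of both subunits fell lowest in replicates 2 and 3 and highest in replicate 5, and S100a8 rose by 2.38 (SE 0.19, adjusted p = 5.35e-06).

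Stfa2l1, a stefin A gene, read 3199.7, 1421, 1423 and 2713 in 4T1 and 126, 106, 114.96, 123 and 172 in normal lungs. It rose 14.5-fold (log2 change 3.85, SE 0.301, adjusted p = 5.35e-06), the largest fold of the 45. The 4T1 replicates 1 and 4 lay above replicates 2 and 3, and all were far above the normal arrays. Stfa3, of the same family, lay under the level filter and read 608, 164, 104 and 556 in 4T1 and 5.02, 6.83, 8.42, 6.66 and 7.56 in normal lungs. Again replicates 1 and 4 were highest, and without the filter its log2 change of 3.69 was called (adjusted p = 0.000935). The stefin A genes lie in a cluster of near-identical copies, so the probe sets may read more than one of them.

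**Figure D2:**
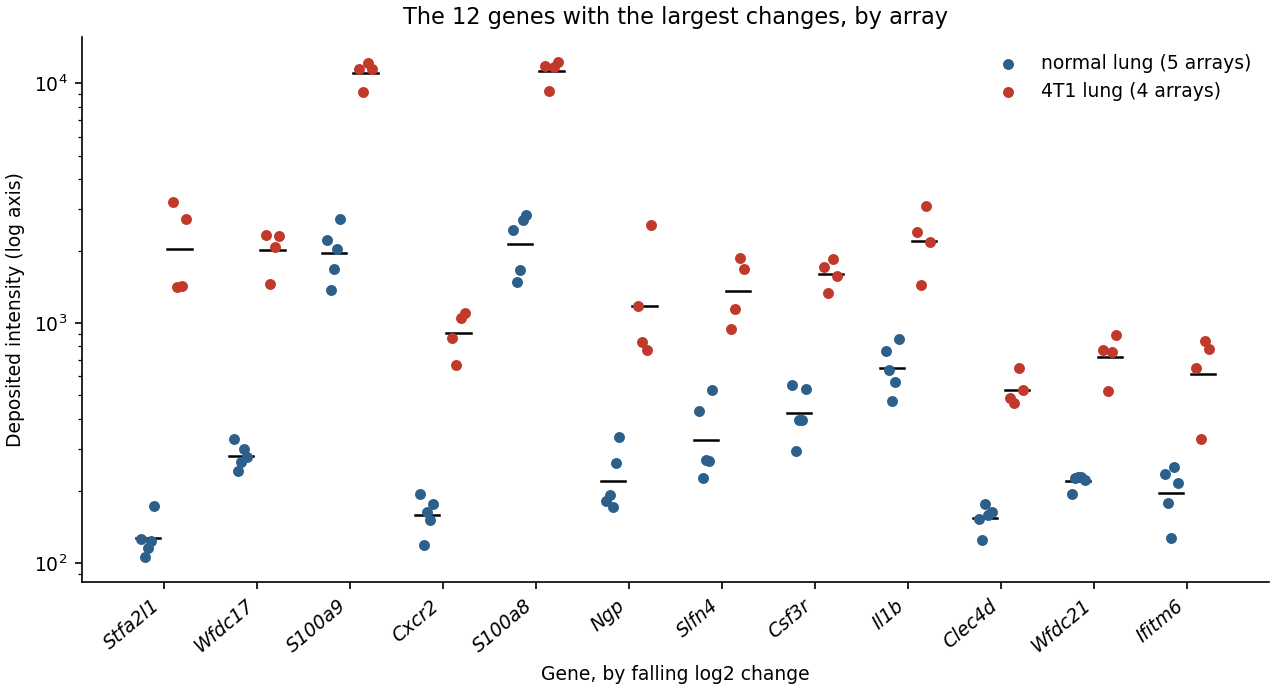
Deposited intensity on a log axis for the 12 genes with the largest log2 changes, in falling order of change; each point is an array and each bar the mean of the log intensities of its group. For all 12 genes every 4T1 point lies above every normal point, and Ngp is the most spread among 4T1 arrays.

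To show the sequence upstream of the strongest responders, 250 bases before the annotated start are printed for the genes of the 12 largest changes in which this stretch held a C/EBP or PU.1 motif. C/EBP and PU.1 factors are master regulators of granulocytes and other myeloid cells. Of the 12 genes, 11 had a promoter in the table used and 5 had such a match. The sequences are from RefSeq (GRCm38.p6), given 5′ to 3′ in the gene's own direction, with the match in capitals. Il1b is at chr2:129371140-129371389 (minus strand), S100a8 at chr3:90668821-90669070 (plus), S100a9 at chr3:90695722-90695971 (minus), Clec4d at chr6:123261857-123262106 (plus) and Ngp at chr9:110419558-110419807 (plus).
Il1b: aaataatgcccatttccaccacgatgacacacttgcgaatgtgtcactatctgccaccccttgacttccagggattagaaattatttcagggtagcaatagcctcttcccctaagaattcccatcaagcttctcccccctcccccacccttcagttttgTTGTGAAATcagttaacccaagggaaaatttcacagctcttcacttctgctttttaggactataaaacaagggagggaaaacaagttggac
S100a8: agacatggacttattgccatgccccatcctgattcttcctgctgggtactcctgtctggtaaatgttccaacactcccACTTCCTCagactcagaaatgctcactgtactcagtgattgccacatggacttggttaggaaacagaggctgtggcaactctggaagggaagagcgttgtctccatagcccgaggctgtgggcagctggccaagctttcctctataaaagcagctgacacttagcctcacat
S100a9: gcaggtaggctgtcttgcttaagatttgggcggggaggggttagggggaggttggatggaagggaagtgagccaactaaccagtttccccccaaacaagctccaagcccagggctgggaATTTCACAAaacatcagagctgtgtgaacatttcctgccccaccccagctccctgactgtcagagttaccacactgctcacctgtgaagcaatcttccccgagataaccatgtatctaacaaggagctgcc
Clec4d: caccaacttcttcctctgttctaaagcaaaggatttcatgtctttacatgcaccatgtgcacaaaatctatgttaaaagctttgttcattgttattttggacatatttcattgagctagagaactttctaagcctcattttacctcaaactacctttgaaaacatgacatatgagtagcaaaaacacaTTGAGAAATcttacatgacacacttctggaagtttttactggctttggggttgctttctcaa
Ngp: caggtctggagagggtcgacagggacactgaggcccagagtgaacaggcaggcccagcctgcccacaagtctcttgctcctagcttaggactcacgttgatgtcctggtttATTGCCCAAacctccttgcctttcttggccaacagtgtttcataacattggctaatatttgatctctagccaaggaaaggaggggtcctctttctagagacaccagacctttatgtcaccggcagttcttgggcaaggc

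The capitals mark TTNNGNAAT (C/EBP) in Il1b, S100a9, Clec4d and Ngp and GAGGAAGT (PU.1) in S100a8, where a match on the other strand appears as its reverse complement. Both strands were searched, in windows of 250 bases before to 50 bases after the start. Such windows were found for 35 of the 45 genes, 36 windows in all. The C/EBP motif was in 7 of the 36 (19.4%) against 11.5% of all 32851 promoter windows, and the PU.1 motif in 5 (13.9%) against 3.20%, the other carriers being Fcgr4, Pirb, Mmp8 and Cd300lf. A STAT motif, TTCNNNGAA, was in 6 (16.7%, against 8.30% of all), an NF-kB motif in 2 (5.56% against 1.63%) and an AP-1 motif, TGANTCA, in 2 (5.56% against 7.81%). Motifs of different factors may overlap, a match is a run of letters and not a binding site, and these shares carry no test. In the RefSeq order of the genes with a value on the array, S100a8 and S100a9 are neighbours. They were among 6 pairs of the 45 genes with at most 2 such genes between them. The others were Slfn1 with Slfn4, Wfdc17 with Wfdc21, Ncf4 with Csf2rb, Asprv1 with Mxd1, and Ifitm1 with Ifitm6. The share of such pairs over all genes was not computed.

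Among granule genes the calls were all of specific and gelatinase granules. The azurophil granule enzymes lay under the level filter and were not tested with it. Of the specific and gelatinase granule genes 4 of 10 tested rose (Ngp, Mmp8, Mmp9 and Pglyrp1), against 0.412% of all tested genes. Of these 10 genes 0 fell and 9 were positive, and their median log2 change was 0.55. Ngp, a cathelin-like protein of specific granules, read 1178, 831, 772 and 2575 in 4T1 and 182, 192, 171, 261 and 335 in normal lungs. Replicate 4 was more than 2 times any other 4T1 array, yet the lowest 4T1 array, replicate 3, still exceeded every normal array, and Ngp rose by 2.34 (SE 0.29, adjusted p = 0.000675). Mmp8, neutrophil collagenase, rose by 1.36 (SE 0.098, adjusted p = 3.48e-06) from 119.7 to 147 in normal to 286 to 427 in 4T1 lungs. Mmp9, the gelatinase of the latest granules, rose by 1.29 (adjusted p = 0.000747), and its arrays read 893, 533, 928 and 599 against 248, 302, 261, 280.4 and 343. Here replicates 1 and 3 were the high 4T1 arrays, not 1 and 4. Pglyrp1, a peptidoglycan-recognition protein of granules, rose by 1.08 (adjusted p = 0.000194).

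Other members of this list lay under the level filter or missed the threshold. Olfm4, a specific granule glycoprotein found in a subset of neutrophils, read 231, 148, 273 and 257 in 4T1 and 32.7, 9.57, 35.8, 36.2 and 46.1 in normal lungs. Its log2 change of 2.36 was called without the filter (adjusted p = 0.000351), and normal replicate 2 stood well below the other normal arrays. Camp, the cathelicidin of specific granules, read 184, 93.1, 38.7 and 572 in 4T1 and 8.67, 8.55, 8.15, 10.3 and 12.6 in normal lungs. The 4T1 arrays spread over more than a factor of 10 around a log2 change of 2.67 (adjusted p = 0.0372 without the filter), a call lost in 6 of the 9 leave-one-out fits, namely without 4T1 replicate 1 or any one normal array (adjusted p up to 0.149). Lactoferrin, Ltf, had a log2 change of 0.77 with overlapping groups (adjusted p = 0.628). Lcn2, which binds bacterial siderophores, lay above the normal range on every 4T1 array but had a log2 change of only 0.32 (adjusted p = 0.178).

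The list drawn up for azurophil granules and promyelocytes had 0 called genes. Ms4a3 and Serpinb1a, the 2 tested of 7 listed, had log2 changes of -0.093 and 0.16. The granule enzymes of the list lay under the filter, so the tested genes say little about azurophil granules. Under the filter, myeloperoxidase (Mpo) read 130.02, 84.7, 109.5 and 172 in 4T1 and 123, 95.9, 99.98, 91.7 and 77.6 in normal lungs, with overlap. Neutrophil elastase (Elane) and cathepsin G (Ctsg) were at 28.7 to 39.1 and 3.45 to 7.25 in 4T1 lungs, against 18.7 to 32.7 and 5.20 to 7.36 in normal lungs. Proteinase 3 (Prtn3) read 129, 100.2, 49.6 and 112 against 17.8, 20.4, 16.2, 12.6 and 88.1, where normal replicate 5 overlapped the 4T1 range, and was not called without the filter either. Of 11 tested bone marrow progenitor and cell cycle genes limma called 0, with a median log2 change of 0.095 and 2 higher at an unadjusted p under 0.05.

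Receptors through which neutrophils respond to chemoattractants and growth factors rose in part. Of 11 tested, 4 rose, against 0.412% of all tested genes, and 0 fell. The median log2 change was 0.34. Cxcr2, the receptor for CXCL1 and CXCL2 that draws neutrophils out of marrow, read 871, 672, 1055 and 1099 in 4T1 and 193, 119, 163, 151 and 175 in normal lungs. The lowest 4T1 array was over 3 times the highest normal array, and Cxcr2 rose 5.302-fold (log2 change 2.41, SE 0.18, adjusted p = 5.01e-06). Csf3r, the G-CSF receptor, read 1714, 1341, 1855 and 1568 in 4T1 and 552, 292, 396, 394 and 531 in normal lungs. Its rise was 1.89 (SE 0.201, adjusted p = 0.00016), with normal replicate 2 lowest of the normal arrays and 4T1 replicate 2 lowest of the 4T1 arrays. Ccr1, a receptor for CCL3 and CCL5, rose by 1.09 (adjusted p = 0.000151), and Csf2rb, the common beta chain of the IL-3, IL-5 and GM-CSF receptors, by 0.57 (adjusted p = 0.0176).

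The marrow retention receptor Cxcr4 had a log2 change of -0.044 and the GM-CSF receptor alpha chain Csf2ra of 0.082. The formyl peptide receptor Fpr2 had one of 0.34 (adjusted p = 0.183) and the IL-17 receptor Il17ra of 0.42 (adjusted p = 0.17), with overlap in both. The brighter probe set of the C5a receptor C5ar1 had a log2 change of 0.34 that was not called. Csf3, which encodes G-CSF itself, was under the filter and read 18.3 to 21.03 in 4T1 and 17.1 to 21.8 in normal lungs. Among 12 tested regulators of granulopoiesis Csf3r alone was called; Spi1, which encodes PU.1, had a log2 change of 0.38 (adjusted p = 0.156), Cebpb of 0.14 and Cebpa of -0.066.

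The list of further surface and cytosolic genes of neutrophils held the most called genes. Of 21 tested 11 rose, against 0.412% of all tested genes, 0 fell, and the median log2 change was 0.64. Wfdc17, which encodes a small secreted protein with a whey acidic protein fold, made by activated myeloid cells, had the smallest p of the tested genes. It read 2332, 1456, 2082 and 2318 in 4T1 and 328, 241, 264, 298 and 277 in normal lungs, and rose 6.85-fold (log2 change 2.78, SE 0.14, adjusted p = 9.94e-08). Its relative Wfdc21 read 774, 521, 756 and 888 in 4T1 and 194, 227, 228, 229 and 222 in normal lungs. The normal arrays were within a narrow band apart from replicate 1, and Wfdc21 rose by 1.65 (SE 0.14, adjusted p = 9.51e-06). Slpi, a secreted inhibitor of elastase made by epithelium and neutrophils, rose by 0.64 (adjusted p = 0.0217).

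Slfn4, a schlafen gene of myeloid cells, read 941, 1147, 1869 and 1686 in 4T1 and 430.2, 226, 269, 266 and 524 in normal lungs. Replicates 3 and 4 were the high 4T1 arrays, all 4 lay above normal replicate 5, and Slfn4 rose by 2.01 (SE 0.25, adjusted p = 0.000639). Its neighbour Slfn1 rose by 0.89 (adjusted p = 0.0127). Ifitm6, of the interferon-induced transmembrane family, read 653, 329, 845 and 781 in 4T1 and 235, 177, 127, 251 and 216 in normal lungs. Replicate 2 read about 50% of the next lowest 4T1 array, and the rise was 1.57 (SE 0.25, adjusted p = 0.00715); with 4T1 and normal arrays fitted alone it was not called (adjusted p = 0.0534). Ifitm1 ran from 2116 to 2416 in normal to 4079.97 to 5332 in 4T1 lungs, a rise of 1.05 (SE 0.071, adjusted p = 2.17e-06), while Ifitm2 had a log2 change of 0.077. Ifitm and schlafen genes are known from interferon responses too. Of 18 tested genes of the type I interferon response limma called 0, with 1 higher at an unadjusted p under 0.05 and a median log2 change of 0.0059.

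The remaining 4 called members were Selplg, Asprv1, Gda and Mxd1. Selplg, the P-selectin ligand by which leukocytes roll on endothelium, rose by 0.74 (adjusted p = 0.00715) and was the 1 gene called of 13 tested leukocyte and endothelial adhesion genes. Mxd1, a MAX partner that opposes MYC in maturing myeloid cells, rose by 0.702 (SE 0.079, adjusted p = 0.000269). Asprv1, an aspartic protease, rose by 1.39 (adjusted p = 0.0027) and guanine deaminase, Gda, by 0.72 (adjusted p = 0.0242). The decoy interleukin 1 receptor Il1r2 lay under the filter and read 142, 181, 158 and 198 in 4T1 and 11.4, 64.999, 119.8, 45.99 and 44.7 in normal lungs. Its groups did not overlap, but the normal arrays ranged over a factor of 10 and its log2 change of 1.51 was not called without the filter.

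Taking the 5 neutrophil lists as one, 22 of 47 tested genes rose (46.8%, against 0.412% of all tested genes) and 0 fell. Of the 47, 41 had a positive change, and the median log2 change was 0.54. The lists were chosen with earlier results of these data known, so this share is a description and not a test of enrichment. A further 19 of the 66 genes with a value lay under the filter, which averages all 14 arrays and so favours genes that are high in 4T1 lungs.

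Some innate recognition receptors were called, where 0.412% of all tested genes were. Clec4d, a C-type lectin for mycobacterial glycolipids on neutrophils and monocytes, read 489, 466, 648 and 528 in 4T1 and 153, 124, 176, 158 and 163 in normal lungs. The groups were far apart with little spread in either, and the rise was 1.68 (SE 0.096, adjusted p = 3.09e-07). Clec4e, its partner lectin, lay under the filter with 213, 196, 298 and 214 in 4T1 and 128, 89.5, 79.9, 76.3 and 8.76 in normal lungs, where normal replicate 5 was far below the rest. Cd300lf, an inhibitory lipid receptor, rose by 0.94 (SE 0.094, adjusted p = 9.55e-05), which made 2 of 16 tested lectin and activating receptor genes called, with 13 positive and a median log2 change of 0.30. The paired receptor Pilra and the adaptors Tyrobp and Fcer1g had log2 changes of 0.52, 0.49 and 0.63 that missed the threshold (adjusted p = 0.0746, 0.0912 and 0.182). Siglece, an inhibitory sialic acid receptor of neutrophils, read 55.5, 45.7, 53.5 and 62.1 in 4T1 and 12.96, 11.9, 12.7, 34.2 and 10.99 in normal lungs, under the filter. Only normal replicate 4 approached the 4T1 range, and the log2 change of 1.15 was called without the filter (adjusted p = 0.00542). Tlr13, a receptor for bacterial ribosomal RNA, rose by 0.76 (adjusted p = 0.00237), alone among 12 tested Toll-like receptor and adaptor genes; Tlr2 and Tlr4 had log2 changes of 0.096 and 0.0035.

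Of the interleukin 1 family and other inflammatory cytokines, Il1b alone of 15 tested genes was called. Il1b, the precursor of a fever and endothelial activation signal, read 2407, 1444, 3085 and 2169.8 in 4T1 and 768, 637, 474, 569.6 and 862 in normal lungs. Replicate 3 was highest and replicate 2 lowest of the 4T1 arrays, with no overlap, and Il1b rose 3.33-fold (log2 change 1.74, SE 0.23, adjusted p = 0.00117). Il1a, Nlrp3 and Casp1, its relative and 2 parts of the machinery that processes it, had log2 changes of -0.031, -0.12 and 0.22. Tnf and Il6 were under the filter, at 10.8 to 67.6 and 17.2 to 37.3 in 4T1 against 10.9 to 16.995 and 26.99 to 42.02 in normal lungs. Of 12 tested neutrophil and monocyte chemokines limma called 0, with 3 higher at an unadjusted p under 0.05 and a median log2 change of -0.027, and Cxcl1 read 462, 474, 470.4 and 475 in 4T1 and 494, 449.7, 478, 506 and 413 in normal lungs.

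Enzymes of oxygen radical and lipid mediator synthesis were called singly. Ncf4, the p40 subunit of the phagocyte NADPH oxidase, rose by 0.76 (SE 0.11, adjusted p = 0.0048), while its partners Cyba, Cybb and Ncf1 had log2 changes of 0.08, -0.15 and 0.201. Alox5ap, which hands arachidonate to 5-lipoxygenase for leukotriene synthesis, rose by 0.66 (adjusted p = 0.00502; 0.0534 with 4T1 and normal arrays fitted alone), while 5-lipoxygenase itself, Alox5, had a log2 change of 0.199 and Lta4h of -0.053. Pla2g7, which breaks down platelet-activating factor, rose by 0.999 (adjusted p = 0.000312). Lpcat2, which makes it, rose by 0.72 on its brightest probe set (adjusted p = 0.0475), but a second probe set of similar brightness had a change of -0.043, and with the mean of its probe sets the change was 0.34 and not called (adjusted p = 0.117). Ptgs2, the inducible prostaglandin synthase, lay below the normal range on every 4T1 array, at 235, 214, 272 and 226 against 309.8, 292, 287, 279.98 and 354, with a log2 change of -0.34 that was not called (adjusted p = 0.853).

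Among 10 tested acute phase genes 2 rose, against 0.412% of all tested genes. Steap4, a metalloreductase of iron and copper, read 1165, 1141, 1703 and 1337 in 4T1 and 599.7, 523, 641, 561 and 617 in normal lungs. The groups were apart by nearly a factor of 2 at their nearest arrays, and the rise was 1.15 (SE 0.11, adjusted p = 5.81e-05). Lrg1, a leucine-rich glycoprotein of endothelium, liver and neutrophils, rose by 0.83 (adjusted p = 0.0118). The serum amyloid Saa3 and the STAT3 target Socs3 had log2 changes of 0.45 and 0.35 (adjusted p = 0.6 and 0.735). Slc40a1, the iron exporter ferroportin, rose by 0.79 (adjusted p = 0.0265).

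Of the 45 called genes 14 were in none of the lists. Besides Pla2g7, Lpcat2 and Slc40a1 they were Msrb1, a selenoprotein that reduces oxidised methionine (0.69, adjusted p = 0.000194), and Pirb, an inhibitory receptor for MHC class I (0.85, adjusted p = 0.00619, or 0.0534 with 4T1 and normal arrays fitted alone). Fgl2, a secreted and membrane-bound prothrombinase, rose by 0.72 (adjusted p = 0.00581). Lyst, a regulator of lysosome size whose loss gives giant granules in neutrophils, rose by 0.36 on its brightest probe set (SE 0.059, adjusted p = 0.00956). Its other tested probe set had a change of 0.067, and averaging its probe sets ended the call (adjusted p = 0.701). The matrix proteins Tgfbi and Emilin2 rose by 0.43 and 0.700, and the ubiquitin ligase Rnf149 by 0.38. AB124611, Ogfrl1, Tpd52 and Glipr1 rose by 0.896, 0.38, 0.38 and 0.27.

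Of 22 tested genes studied in the premetastatic niche, 4 rose (Il1b, Mmp9 and both calprotectin subunits), against 0.412% of all tested genes. The other 18 were not called, and the median log2 change of the 22 was 0.015. The 4 that rose are also known from neutrophils or other myeloid cells. The matrix crosslinker Lox, fibronectin (Fn1), periostin (Postn) and Vegfa had log2 changes of 0.21, 0.12, 0.042 and 0.026, and Bmp4 of -0.25 with 4T1 arrays below all normal arrays (adjusted p = 0.434). Among 12 tested genes of myeloid immunosuppression the 2 calprotectin subunits were the called ones. Arg2, mitochondrial arginase, read 489, 554, 522 and 458 in 4T1 and 235, 321, 441, 229.9 and 314 in normal lungs. The groups did not overlap, though normal replicate 3 came close, and the log2 change of 0.72 missed the threshold (adjusted p = 0.0723). Arg1 and Nos2 were under the filter, at 19.9 to 29.1 and 7.66 to 9.79 in 4T1 and 21.3 to 46.4 and 8.85 to 12.7 in normal lungs, and the PD-L1 gene Cd274 had a log2 change of -0.041.

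Lists of other cell types gave few or no calls. Of 22 tested monocyte and interstitial macrophage genes Fcgr4, an activating Fc receptor, alone rose, by 0.41 (adjusted p = 0.0475), with a median of 0.105 over the list. The 35 lists that held no called gene had 412 tested genes, with 0 called by the choice of lists. Of these genes 18 were higher and 12 lower at an unadjusted p under 0.05 in limma, with a median log2 change of 0.0085. By the same measure 391 were higher and 325 lower of all 10916 tested genes. Lists picked in this way cannot show that other cell types were unchanged. Among leukocytes, medians were -0.012 for alveolar macrophages, -0.024 for dendritic cells, -0.01 for T cells, 0.043 for NK and cytotoxic cells and 0.006 for B and plasma cells. Among structural cells they were -0.0013 for vascular endothelium, 0.035 for fibroblasts, 0.093 for smooth muscle, 0.021 for alveolar type 1 cells, -0.064 for alveolar type 2 cells, -0.00051 for airway secretory cells and -0.094 for ciliated cells. Several further programmes lay as near to 0, with 0.002 for the respiratory chain, -0.004 for ribosomal proteins and 0.0009 for the unfolded protein response. Others were 0.032 for glycolysis and hypoxia, 0.038 for complement, -0.0028 for antigen presentation and 0.055 for heat shock. Medians lay further from 0 for adipose genes (0.495, with 5 of 5 tested positive), the glucocorticoid response (0.18) and immediate early genes (-0.18). The alveolar macrophage marker Marco was dim in both groups, at 6.57 to 29.5 and 5.27 to 44.1. The 10 tested genes of mammary and carcinoma epithelium, kept as markers of tumour cells, had a median of -0.028, with Epcam, Krt8 and Krt18 at -0.083, 0.0025 and -0.036; airway and alveolar cells express these 3 genes too.

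**Figure D3:**
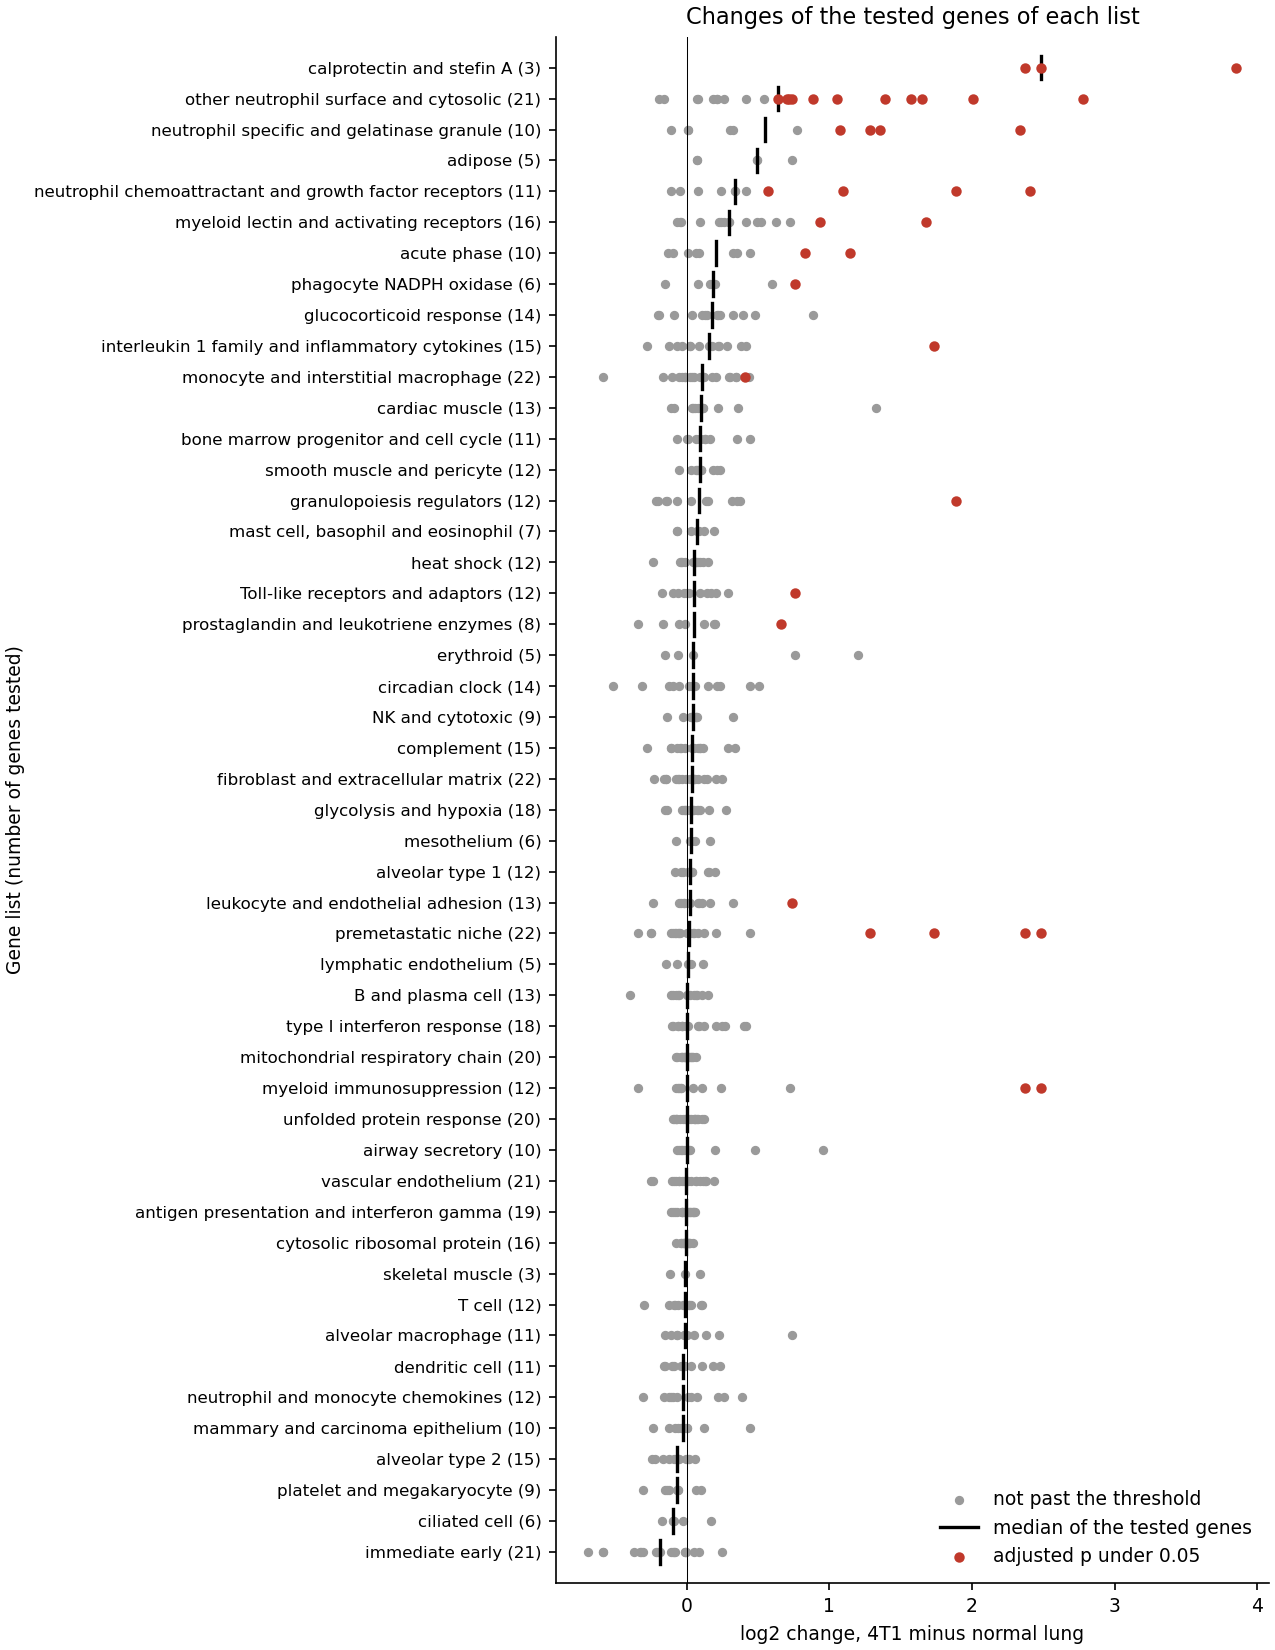
Log2 changes of 4T1 against normal lung for the tested genes (points) of each gene list with at least 3 of them, one list per line with its number of tested genes, and the list's median as a black bar. Red points were called by limma. They lie mostly in neutrophil and other myeloid lists, while lists of structural lung cells and lymphocytes are centred near 0.

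Blood left in the vessels and tissue taken along at dissection were followed by their own genes. The 10 erythroid genes with a value had summed intensities of 5859 to 7320 in 4T1 and 5481 to 6939 in normal lungs. Car2 and Tfrc were the brightest of them, with log2 changes of -0.148 and 0.047, and weigh most in these sums. The dim genes Klf1, Rhag, Car1 and Epb42 had changes of 0.86, 0.49, -0.499 and 0.025, and Epor of -0.0596. Of the 5 tested limma called 0, with 1 higher at an unadjusted p under 0.05. Of these, Slc4a1, the red cell anion exchanger, read 272, 239, 466 and 302 in 4T1 and 176, 43.03, 139, 163 and 164 in normal lungs without overlap (log2 change 1.203, adjusted p = 0.308), Alas2 had a log2 change of 0.76 with overlap, and under the filter the globin gene Hba-a1 read 52.4, 49.5, 118 and 45.8 against 10.05, 9.82, 82.2, 43.7 and 25.6. The 9 tested platelet genes had a median of -0.068, and the 13 with a value summed to 4790 to 5428 in 4T1 and 4707 to 6014 in normal lungs. The part of residual blood in the neutrophil results was not tested. The 10 adipose genes with a value summed to 3994 to 11585 in 4T1 and 2897 to 6169 in normal lungs, highest in 4T1 replicate 3, where the brown fat gene Ucp1 read 244.8 against 4.66 to 6.40 on the other 8 arrays. Of the cardiac genes Nppa, atrial natriuretic peptide, had a log2 change of 1.33 with values of 735, 1063, 649 and 1381 in 4T1 and 242, 135, 344, 1161 and 407 in normal lungs, where normal replicate 4 lay among the 4T1 arrays, and of 13 tested limma called 0, with 0 at an unadjusted p under 0.05.

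Of basophil, mast cell and eosinophil genes 0 of 7 tested were called in limma, none of them with an unadjusted p under 0.05 (0 higher and 0 lower). Under the filter, Mcpt8, a protease specific to basophils, read 133, 74.97, 117 and 132 in 4T1 and 6.34, 11.2, 11.7, 10.99 and 13.3 in normal lungs. All 4T1 arrays were at least 5 times the highest normal array, and the log2 change of 2.27 was called without the filter (adjusted p = 4.89e-05). Of the same list, Ms4a2, Cd200r3, Hdc, Gata2 and Il4 had log2 changes of 0.42, 0.505, 0.073, 0.19 and -0.031. Their groups overlapped, and none of these genes was called with or without the filter. Of mast cell genes, Cpa3 and Cma1 had log2 changes of 0.034 and 0.12, and Mcpt4 read 10.9 to 12.5 and 9.41 to 12.7. Fcer1a, the IgE receptor alpha chain that basophils and mast cells share, read 109.8, 76.04, 70.3 and 83.02 in 4T1 and 64.7, 68.2, 59.6, 54.8 and 63.7 in normal lungs, apart by little.

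Without the level filter limma called 50 of 18194 genes (0.275%), of which 13 lay under it. Besides Stfa3, Camp, Olfm4, Mcpt8 and Siglece they included Klra17, a lectin-like receptor, at 1.46 (adjusted p = 5.87e-07), with arrays of 243, 210.3, 237 and 214 in 4T1 and 76.2, 61.5, 74.4, 78.6 and 69.3 in normal lungs. Nlrp12, a NOD-like receptor of myeloid cells, had a log2 change of 1.28, Igsf6 of 1.16 and the proton-sensing receptor Gpr65 of 0.61. Igsf6 was not called without 4T1 replicate 1 or 3 (adjusted p up to 0.0707), nor Gpr65 without 4T1 replicate 3 (0.0658). Tdgf1, a developmental co-receptor, was the 1 lower gene, at -0.95 (adjusted p = 0.0454) from 26.5 to 49.04 in normal to 5.02 to 22.2 in 4T1 lungs, at low intensities in both groups. Its call was kept only without 4T1 replicate 4 among the leave-one-out fits (adjusted p up to 0.170 in the others).

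No gene passed on the lower side, and those with the smallest p are given as not past the threshold. Phlda1, a pleckstrin-homology protein induced by growth factors, came nearest, with 2712, 2249, 2439 and 2628 in 4T1 and 3556, 3471, 2929, 3079.8 and 3375 in normal lungs. Its groups did not overlap and its log2 change was -0.39 (SE 0.08, adjusted p = 0.0575). Over 21 alternative limma fits its adjusted p ran from 0.0256 to 0.199, and Phlda1 was called in 6 of them. Wnt4 had a log2 change of -0.61 and Ier5l of -0.68 (adjusted p = 0.128 and 0.129). Azin2, Olfml3, Tbcel, Kif3a and Pxmp4 had changes of -0.35, -0.34, -0.34, -0.33 and -0.27, with adjusted p-values between 0.103 and 0.146. Dhcr7 and Lss, at -0.27 and -0.27 (adjusted p = 0.101 and 0.162), both act in cholesterol synthesis, and a list of that pathway was drawn up after their values were seen. Of its 19 tested genes 2 were positive and 17 negative, with a median of -0.19 and 0 called. At an unadjusted p under 0.05 in limma 10 were lower, against 325 of all 10916 tested genes. Dhcr7, Lss and Nsdhl lay below every normal array, as did 144 (1.32%) of all tested genes. Dhcr7 and Lss, which prompted the list, are counted in it, so these counts are a description.

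Immediate early genes, which respond within minutes to handling, stretch and growth factors, had mostly negative changes. Of 21 tested 3 were positive, the median log2 change was -0.18 and limma called 0, with 3 lower at an unadjusted p under 0.05. Egr1 read 888, 779, 1014 and 1101 in 4T1 and 3148, 1332, 1202, 1264 and 1270.2 in normal lungs. Normal replicate 1 was over 2 times any other array, and the change of -0.69 was not called (adjusted p = 0.503). Ccn1 was likewise highest in normal replicate 1, at 1333, 1068, 1133 and 1129 against 2939.8, 1797, 1563, 1371 and 1446, with a change of -0.58 (adjusted p = 0.607).

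Arrays of a group differed in ways that cut across the comparison. Along the first principal component, heat shock and glucocorticoid genes (Hspa1a, Hspa1b, Hsph1, Zbtb16, Fkbp5) led one end and B cell genes (Cd79a, Cd79b, Ms4a1) the other. Hspa1a read 953, 1791, 376 and 3088 in 4T1 and 1364, 2956, 4133, 417 and 769 in normal lungs, and its arrays spread widely within each group. Fkbp5, a glucocorticoid target, read 637, 2722, 533 and 1438 in 4T1 and 520.2, 941, 2654, 438 and 623 in normal lungs. In both genes 4T1 replicates 2 and 4 and normal replicates 2 and 3 were high, and neither was called (log2 changes -0.23 and 0.39). The glucocorticoid list had 11 of 14 tested genes positive, a median of 0.18 and 0 called, with 1 higher at an unadjusted p under 0.05 in limma.

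**Figure D4:**
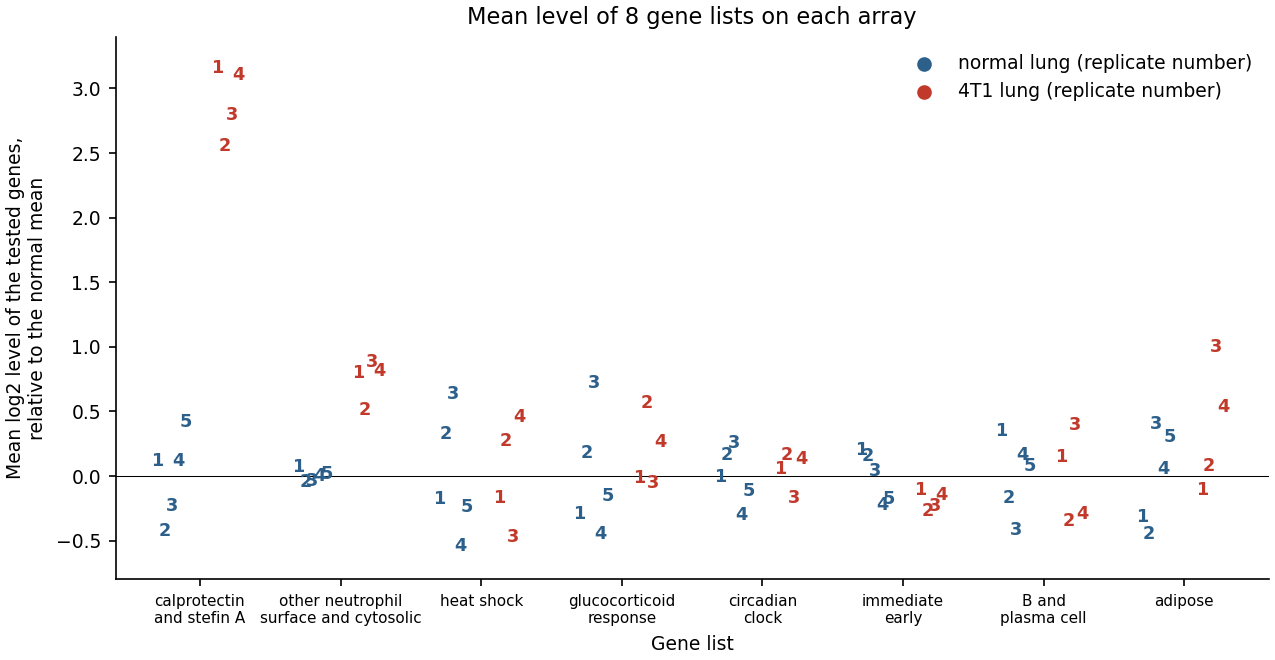
Mean log2 level of the tested genes of 8 lists on each array (vertical axis, relative to the mean of the normal arrays), with each array drawn as its replicate number, blue for normal and red for 4T1 lungs. The 4T1 arrays lie above all normal arrays in the calprotectin and stefin A list (2.56 to 3.16) and the other neutrophil list (0.51 to 0.88), while the groups are mixed in the other 6 lists, and adipose genes are highest in 4T1 replicate 3 (1.002).

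The size of the rise of the called genes varied among 4T1 lungs. The 45 called genes lay on average 1.22, 0.87, 1.33 and 1.23 above the normal mean on 4T1 replicates 1 to 4, and between -0.14 and 0.11 on the normal arrays. Replicate 2 was the lowest 4T1 array for 38 of the 45 genes, and replicate 3 the highest for 28. Among normal arrays replicate 2 was lowest for 23 and replicate 5 highest for 14. The lowest 4T1 array exceeded the highest normal array by factors of 1.03 to 8.24 over the 45 genes, and by more than 2 in 9. Between the highest and lowest 4T1 array 5 called genes differed by more than 2-fold: Ngp (3.33), Ifitm6 (2.57), Stfa2l1 (2.25), Asprv1 (2.15) and Il1b (2.14).

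Genes did not share one order over the 4T1 arrays. Camp, Stfa3, Ngp, Stfa2l1 and Asprv1 were high in replicates 1 and 4 and low in 2 and 3, whereas Il1b, Ccr1, Csf3r, Steap4 and Lrg1 were highest in replicate 3; the choice of these 10 was made with their values in view. The ratio of the highest to the lowest 4T1 array was 14.8 for Camp and 5.87 for Stfa3.

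**Figure D5:**
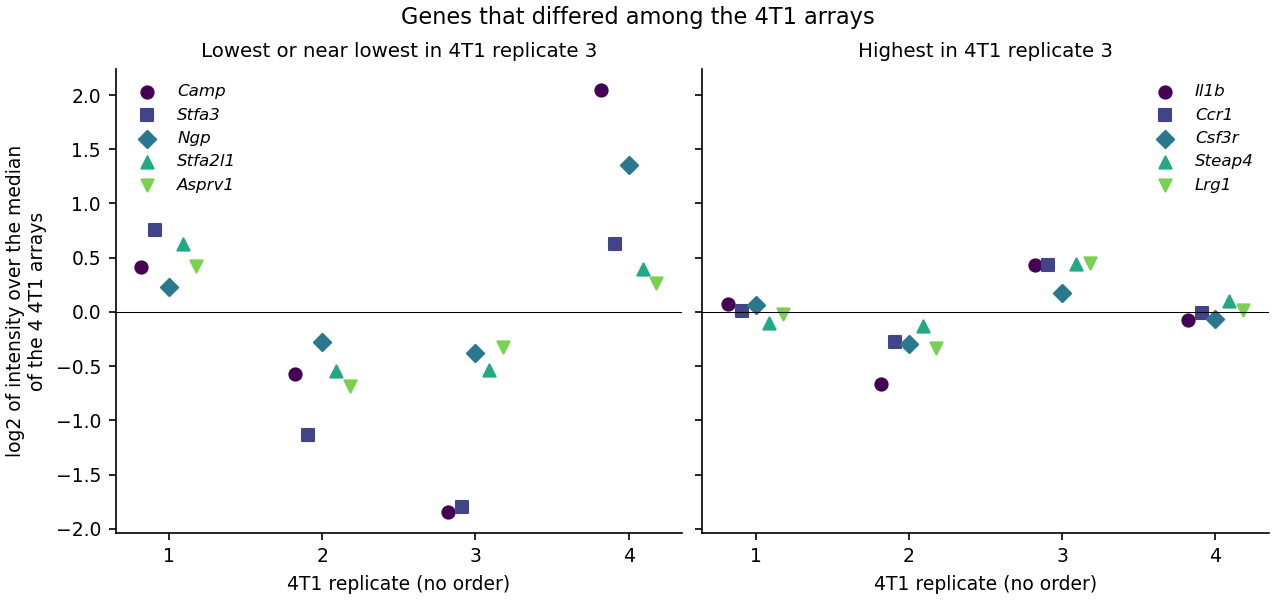
Intensity of 10 genes on each 4T1 array, as the log2 ratio to the median of the 4 arrays (vertical axis), by replicate (horizontal axis, in no order). The genes on the left, led by Camp and Ngp, lie above their median in replicates 1 and 4 and below it in replicates 2 and 3; those on the right are highest in replicate 3 and lowest in replicate 2.

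Most calls held when any one array was left out: 32 of the 45 genes were called in all 9 such fits, and the total ran from 33 to 67. The highest total, 67, came without 4T1 replicate 2. The 13 others lost the call in at least 1 fit. Slfn1 lost it without 4T1 replicate 1 (adjusted p = 0.0703), AB124611 without 4T1 replicate 1 or 3 (up to 0.0847), and Rnf149 without 4T1 replicate 1, 3 or 4 (up to 0.100). Csf2rb lost it without 4T1 replicate 1 or 4 or normal replicate 1 or 2 (up to 0.0654), Slc40a1 without 4T1 replicate 1, 3 or 4 or normal replicate 2 (up to 0.126), and Tgfbi without 4T1 replicate 1 or normal replicate 1, 3 or 4 (up to 0.0965). Slpi lost it in 6 fits, without 4T1 replicate 1, 3 or 4 or normal replicate 2, 4 or 5 (up to 0.107). Emilin2, Gda, Lpcat2 and Tpd52 each lost it in 7 of the 9 fits, in each case without 4T1 replicate 1, 3 or 4 among others (up to 0.147, 0.103, 0.187 and 0.104). The others were normal replicates 1 to 4 for Emilin2 and Tpd52, normal replicates 1, 2, 3 and 5 for Gda, and normal replicates 1, 3, 4 and 5 for Lpcat2. Fcgr4 kept it only without 4T1 replicate 2 and Glipr1 only without normal replicate 1 (up to 0.180 and 0.148).

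Changes of method also ended calls, and 19 of the 45 genes lost theirs in at least 1 of them. With 4T1 and normal arrays fitted alone 16 were lost, at adjusted p of 0.0534 to 0.157: AB124611, Alox5ap, Csf2rb, Emilin2, Fcgr4, Glipr1, Ifitm6, Lpcat2, Lyst, Pirb, Rnf149, Slc40a1, Slfn1, Slpi, Tgfbi and Tpd52. With no filter on level Emilin2, Fcgr4, Gda, Glipr1, Lpcat2, Slc40a1, Slpi and Tpd52 were lost (up to 0.104). With the mean of all probe sets Csf2rb, Glipr1, Lpcat2, Lyst, Mxd1, Ogfrl1 and Tpd52 were lost (0.100 to 0.701). Mxd1 and Ogfrl1 each had a further probe set that limma called on its own (0.69 and 0.32, adjusted p = 0.0022 and 0.00509). The mean also took in a dim probe set of each, with changes of 0.06 (SE 0.603) and 0.41 (SE 0.287). With the replicate number as a block Emilin2, Fcgr4, Gda, Glipr1, Lpcat2, Lyst and Slpi were lost (up to 0.113).

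Several genes are read by more than one probe set. Of the 45 called genes 30 had 1 probe set and 15 had 23 further ones. Of the further ones 21 were positive, 17 were bright enough to test and 10 were called. These 10 were of Gda, Mmp9, Mxd1, Ogfrl1, Slc40a1, Steap4 and Tgfbi. Those of Gda had changes of 0.88 and 0.81 and that of Slc40a1 0.701 (limma adjusted p = 0.000212, 0.00667 and 0.00882). The tested further probe sets of Csf2rb, Fgl2, Glipr1, Lpcat2, Lyst and Tpd52 were not called. Over all 20974 tested probe sets limma called 63 (0.300%), 61 higher and 2 lower. They add genes whose brightest probe set was not called, among them Clec4e at 1.92, C5ar1 at 0.86, the SRC-family kinase Fgr at 0.82, Bzw2 at 0.82, the deoxycytidine kinase Dck at 0.66 and Grina at 0.41. The 2 lower probe sets were of Slc26a6, an anion exchanger, at -0.38 and Atp8a1, a phospholipid flippase, at -0.46.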

How the data were processed

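Lung RNA of 14 samples was measured with 1 biotin-labelled Affymetrix array each. Per the labels' protocols, cDNA was made from 3 µg of total RNA and transcribed into labelled cRNA. The authors deposited linear intensity values for 45101 probe sets. Their probe set summary, background correction, normalisation and genome build are not given in the sources used here. Detection calls were not used.

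Groups were taken from sample titles. Probe sets were named by the platform annotation of 2016: 34958 had 1 symbol, 932 several and 9211 none here. Entrez identifiers of 34754 matched RefSeq, and 0 symbols changed. Each of 18194 genes was represented by its brightest probe set (mean log2(intensity + 16)), and the upper 60% of mean level (above 7.35) was tested. This scale understates changes of dim genes. Group means over the 14 arrays were estimated in limma 3.58.1 (R 4.3.3; lmFit, eBayes, 11 residual degrees of freedom), with two-sided p-values and Benjamini-Hochberg adjustment; the script was tested on simulated data. Without the filter, p-values were adjusted over all 18194 genes. The number of arrays limits the precision.

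The comparison, the 50 gene lists and the motifs were chosen with earlier results of these data known; cholesterol synthesis was added after its genes' values were seen. Of 807 listed genes 731 had a value, and 557 of these were tested. Any called gene could be named, by role. Array values were given for the 12 largest changes and for list members the text turns on. The 10 lower genes with the smallest p, up to 4 largest changes per list, up to 3 defining markers per cell type and the 10 largest changes called under the filter were also named. Further members were named as partners of called genes, after their values were seen. Alternatives varied the filter, offset, normalisation, probe set choice, variance model, arrays and replicate block.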

Additional observations from a re-analysis of the deposited data

Results flagged for a closer look

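In 6 of 136 groups of arrays examined, 1 array stood far from the rest by Dixon's ratio of its gap to the group's range; chance gives about 1 in 20. Ncf4 read 586.8 in normal replicate 1 against 418.0 to 445.1 in the other normal arrays (ratio 0.816). Wfdc21 read 193.6 in normal replicate 1 against 221.7 to 229.0 (ratio 0.807). Olfm4 read 9.57 in normal replicate 2 against 32.7 to 46.1 (ratio 0.727), and Siglece read 34.2 in normal replicate 4 against 10.99 to 12.96 (ratio 0.887). The transcript 4930471E19Rik read 15.3 in normal replicate 2 against 5.69 to 7.48 (ratio 0.783). Nlrp12 read 121.3 in 4T1 replicate 2 against 147.2 to 151.9 in the other 4T1 arrays (ratio 0.860).

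Arrays of 67NR lungs, outside the comparison, lay above every normal array for 3 of 58 genes examined (the 45 called and the 13 called only without the filter), against 0.676% of all 18194 genes. Clec4d read 184.6 to 208.1 there (log2 difference from normal lung 0.34); of genes under the level filter, Mcpt8 read 49.0 to 106.1 (1.68) and Sval2 11.3 to 23.6 (0.61). These 58 were chosen on the same normal arrays, so nothing is read from their share.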

How the results depend on the processing

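None of the 68 genes named from the fits (45 called, 13 called only without the level filter and the 10 lower genes) changed sign in any of 1363 gene values recomputed under alternatives, of which 1179 kept their side of the threshold, 170 lost a call and 14 gained one. Of the 45 called genes 26 were called in every alternative that tested them. The count of 45 higher genes fell to 27 (28 in all) with the upper 40% of level, where fewer genes were tested, and to 29 (29 in all) with 4T1 and normal arrays fitted alone, where fewer arrays were used. Leaving out 1 array gave 33 to 67 called genes, and 0 to 3 lower ones. The count of 0 lower genes became 1 with no filter, the upper 40%, an offset of 64, quantile normalisation or trended and robust variances, 2 over every named probe set, 4 with the mean of all probe sets (Cgas, Mtr, Ppil3 and Slc26a6) and 6 with array weights (Azin2, Dhcr7, Kif3a, Olfml3, Phlda1 and Tbcel); the cause was not tested. Of 1050 recomputed list medians 1023 moved by less than 1 SD. Without the filter the calls of 4930471E19Rik and Sval2 were kept in only 1 of the 9 fits leaving out an array, without normal replicate 2 and normal replicate 5 in turn (adjusted p up to 0.183 and 0.132 in the others), and that of Wfdc18 was lost in 7 (up to 0.0994). These genes are dim.

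Samples of the 2 groups share replicate numbers 1 to 4. Deviations of same-numbered samples from their group means correlated at 0.198, 0.137, -0.340 and -0.173 across genes. Only replicate 1 correlated best with its own number, so these values do not show a pairing. They cannot exclude one, since the deviations within a group of few arrays depend on each other. With the number as a replicate block 45 genes were called, 44 higher and 1 lower (Kif3a), of which 38 were shared.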
